A study of Rattus norvegicus with 10 samples.

Results

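Respiratory complex I genes were taken as every gene symbol formed by Ndufa, Ndufb, Ndufc, Ndufs or Ndufv and a number. This gave 35 of the 17168 symbols in the count table. Of these, 32 encode subunits of complex I. Ndufa4 and its paralog Ndufa4l2 carry complex I names but belong to a complex IV family, and Ndufa10l1 is named as a copy of Ndufa10. The 6 symbols that begin with Ndufaf encode assembly factors and were kept apart. Ndufa3, Ndufa13, Ndufb1 and Ndufc1 were not analysed here. The comparison was between 5 female TgF344-AD rats on ordinary chow (untreated) and 5 female TgF344-AD rats on chow with RG2833, an inhibitor of the histone deacetylases HDAC1 and HDAC3. RG2833 was mixed in at 750 mg per kg of chow and given for 6 months from an age of 5 months. All 10 animals were killed at 11 months and perfused, and RNA came from the left hippocampus. TgF344-AD is a rat model of Alzheimer's disease that carries human transgenes with disease mutations, driven by a prion promoter. Both groups carry the transgenes, so the comparison is of RG2833 within the model, and neither males nor non-transgenic rats were analysed here.

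Complex I (NADH:ubiquinone oxidoreductase) is the entry point of the mitochondrial respiratory chain. It takes electrons from NADH and passes them along flavin and iron-sulfur clusters to ubiquinone. This drives protons across the inner membrane. Its peripheral arm holds the N module, where NADH is oxidised, and the Q module, where ubiquinone is reduced. Its membrane arm holds the proton pumps, which are encoded by mitochondrial DNA and were not analysed here. Core subunits do the catalysis and are shared with bacteria, whereas accessory subunits surround them and are needed for assembly and stability. Neurons rely on this chain for most of their ATP.

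The libraries held between 8764266 and 11311673 estimated counts, and 11791 symbols passed the filter on low counts. Values are given as CPM (each count relative to its library's scaled total), which does not correct for transcript length, so levels are compared between animals and not between genes. Ribosomal RNA loci took a share of the counts that was 2.70 to 5.36% in the untreated group and 1.13 to 1.96% in the RG2833 group, with no overlap, so this share and the treatment cannot be told apart. Markers of neurons, astrocytes, oligodendrocytes, microglia and endothelial cells were all detected. Of 5 neuron markers, 1 was called higher in RG2833 (Rbfox3, adjusted p = 0.0400), and the summed list ran from 4115 to 6006 CPM in the untreated and from 5883 to 7053 CPM in the RG2833 animals. Of 5 microglia markers, 1 was called lower (Aif1, adjusted p = 0.0496), with summed levels of 226 to 325 and 207 to 271 CPM. None of the 5 excitatory neuron, 5 interneuron, 5 astrocyte, 5 oligodendrocyte and 5 endothelial markers was called, nor was Ttr, the 1 choroid plexus marker that passed the filter, and no listed marker in the table was at 0 in every library. Summed excitatory neuron markers ran from 4027 to 5582 CPM in the untreated and from 5366 to 6365 CPM in the RG2833 animals. Summed oligodendrocyte markers ran from 5381 to 17104 CPM in the untreated and from 8632 to 11714 CPM in the RG2833 animals. Summed endothelial markers ran from 211 to 320 CPM in the untreated and from 198 to 223 CPM in the RG2833 animals. Ttr stood at 2381 CPM in untreated replicate 1 and at 3.80 to 38.4 CPM in the other libraries. The part of these differences in the results that follow was not tested.

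Some complex I genes fell in the hippocampus of RG2833 animals, and none was called higher. Of the 35 symbols, 15 were called lower and 0 higher at an adjusted p under 0.05 (edgeR's quasi-likelihood test, Benjamini-Hochberg over all genes tested), where 2.67% of all genes tested were called lower and 2.41% higher. At an unadjusted p under 0.05 the counts were 24 lower and 0 higher, against 12.7% and 11.8% of all genes tested. DESeq2 called 20 lower and 0 higher, against 6.01% and 5.42% of all genes with an adjusted p-value. The log2 fold changes ran from -0.65 to 0.04 with a median of -0.33, against a median of -0.00 over all genes tested, and 33 of the 35 were below 0 (34 with library totals or DESeq2 size factors). In 12 of the 35, every RG2833 animal lay below every untreated animal, a pattern seen in 3.47% of all genes tested. The change of the called members ran from -20.7% (Ndufa5) to -36.1% (Ndufa2). The number of members called lower depended on single animals, as did the number over all genes. It was 4, 7 and 2 without untreated replicates 1, 2 and 3, and 3, 2, 1, 6 and 1 without RG2833 replicates 1 to 5, against 18 and 21 without untreated replicates 4 and 5. Over all genes, 315 called lower became 117, 153 and 76 without untreated replicates 1, 2 and 3, between 66 and 139 without each RG2833 animal, and 746 and 518 without untreated replicates 4 and 5. When the ribosomal RNA share was a covariate, 0 members were called lower and the median was -0.10, in a fit that called only 0.0170% of all genes lower (2 genes). At an unadjusted p under 0.05 that fit had 0 members and 2.21% of all genes lower. Without the 2 untreated animals of highest ribosomal RNA share (replicates 2 and 3) 0 were called, where 0.109% of all genes were called lower (13 genes). At an unadjusted p under 0.05, 18 members were lower against 7.78% of all genes, and the median was -0.26. With the choroid plexus score as a covariate 4 members were called lower, 22 were lower at an unadjusted p under 0.05 and the median was -0.30, while 119 genes in all were called lower. In bulk tissue, fewer cells of a type and less RNA per cell cannot be told apart. The p-values set the group difference against the spread between these animals.

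**Figure D1:**
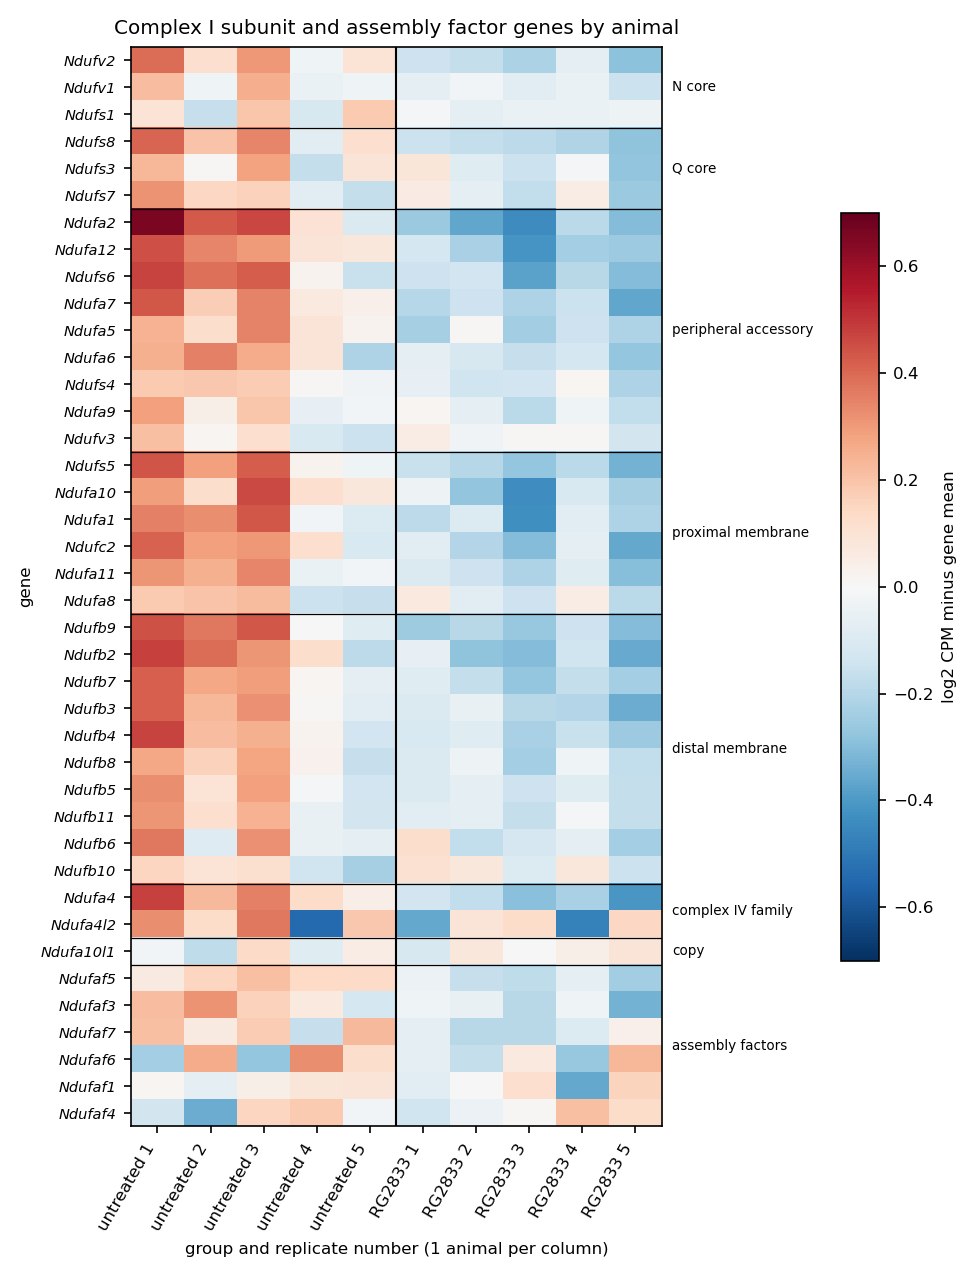
Log2 CPM of complex I and assembly factor genes (rows, grouped by role) in each animal (columns), centred on the gene's mean over the 10 animals; red is above and blue below that mean. Untreated replicate 1 holds the highest value of 21 of the 35 subunit symbols, and RG2833 replicate 5 the lowest of 20.

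In the N module, where NADH is oxidised, 1 of 3 core genes fell. Ndufv2, an iron-sulfur subunit next to the flavin site, stood at 198, 164, 186, 148 and 162 CPM in untreated animals 1 to 5 and at 137, 134, 129.6, 145 and 124 CPM in RG2833 animals 1 to 5. Every RG2833 value lay below the lowest untreated value, that of replicate 4. The log2 fold change was -0.36 ± 0.09 (SE; edgeR adjusted p = 0.0371). Ndufv1, which binds NADH and the flavin, stood at 241, 203, 248, 202 and 204 CPM in the untreated and 199, 205, 196, 201 and 187 CPM in the RG2833 animals. Its groups overlapped and its log2 fold change of -0.15 ± 0.08 did not pass (edgeR adjusted p = 0.247). Ndufs1, the largest iron-sulfur subunit, had a log2 fold change of -0.09 ± 0.08 (edgeR adjusted p = 0.531), with 177 ± 20.2 CPM in the untreated group and 166 ± 2.49 CPM in the RG2833 group (SD, n = 5). The Ndufv2 call held in 2 of the 10 fits that each left out an animal.

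Of the 4 core genes of the Q module, 1 fell. Ndufs8, an iron-sulfur subunit between the NADH and ubiquinone sites, stood at 92.9, 80.5, 88.7, 66.6 and 76.1 CPM in the untreated and 63.1, 62.4, 61.8, 60.5 and 57.5 CPM in the RG2833 animals, with no overlap. Its log2 fold change was -0.41 ± 0.09 (edgeR adjusted p = 0.0268), and it was called in 3 of the 10 leave-one-out fits. The others were not called. Ndufs3, an early core subunit in assembly, differed by -0.18 ± 0.09 (edgeR adjusted p = 0.258) and Ndufs7, which holds the last iron-sulfur cluster before ubiquinone, by -0.16 ± 0.10 (edgeR adjusted p = 0.337). Over the 7 core genes, 2 were called lower and the median log2 fold change was -0.16. Over the 25 accessory genes, 12 were called lower and the median was -0.34. The difference between core and accessory genes was not tested.

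Among the 9 accessory genes of the peripheral arm, 5 fell and all 9 log2 fold changes were below 0. Ndufa12, the subunit that takes the place of an assembly factor late in the building of the arm, had the smallest p-value of the 35 members. It stood at 112, 104, 101, 87.1 and 86.5 CPM in the untreated and 75.1, 69.8, 61.4, 69.5 and 68.7 CPM in the RG2833 animals. The highest RG2833 value, in replicate 1, was below the lowest untreated value, in replicate 5. The log2 fold change was -0.51 ± 0.09 (edgeR adjusted p = 0.0119), a fall of 29.6%, and it was called in all 10 leave-one-out fits.

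Ndufa2, a small subunit with a thioredoxin-like fold, had the log2 fold change farthest below 0 among the members, -0.65 ± 0.13 (edgeR adjusted p = 0.0183). Its values were 87.9, 75.1, 77.2, 59.8 and 52.0 CPM in the untreated and 46.5, 43.3, 41.1, 48.8 and 45.1 CPM in the RG2833 animals. The groups did not overlap, but the untreated animals themselves split, with replicates 4 and 5 closer to the RG2833 animals than to replicate 1. Ndufa7 stood at 80.5, 67.1, 75.8, 62.5 and 61.0 CPM and 51.9, 53.9, 51.3, 53.7 and 46.2 CPM, again without overlap, and differed by -0.43 ± 0.09 (edgeR adjusted p = 0.0225). Ndufa2 and Ndufa7 were each called in 5 of the 10 leave-one-out fits.

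Ndufa5 fell by 0.33 on the log2 scale (edgeR adjusted p = 0.0350), with 114 ± 10.4 CPM in the untreated group and 90.5 ± 6.76 CPM in the RG2833 group (SD, n = 5). In the zinc-binding subunit gene Ndufs6 the values were 67.7, 63.6, 65.4, 49.5 and 43.7 CPM in the untreated and 44.1, 44.4, 37.5, 42.6 and 39.5 CPM in the RG2833 animals. Here untreated replicate 5 lay inside the RG2833 range, and the log2 fold change was -0.48 ± 0.12 (edgeR adjusted p = 0.0411). Both genes were called in 2 of the 10 leave-one-out fits. The 4 genes that were not called were Ndufa6, whose product binds the mitochondrial acyl carrier protein (-0.31, adjusted p = 0.0823), Ndufs4 (-0.22, adjusted p = 0.0905), Ndufa9, a nucleotide-binding subunit (-0.18, adjusted p = 0.183) and Ndufv3 (-0.04, adjusted p = 0.797). Loss of Ndufs4 is the classic mouse model of Leigh syndrome.

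The proximal membrane arm joins the pumps to the peripheral arm, and 4 of its 6 tested accessory genes fell. Ndufs5, an intermembrane-space subunit, stood at 132, 119, 130.2, 98.8 and 95.3 CPM in the untreated and 87.2, 84.6, 80.5, 85.1 and 77.3 CPM in the RG2833 animals, with no overlap. Its log2 fold change was -0.47 ± 0.10 (edgeR adjusted p = 0.0237), called in 4 of the 10 leave-one-out fits. Ndufa11, a membrane subunit, also separated the groups, at 157, 150.3, 160.4, 123 and 125 CPM against 118, 114, 109, 119 and 103 CPM, with a log2 fold change of -0.34 ± 0.09 (edgeR adjusted p = 0.0469). In Ndufc2, which encodes another membrane subunit, the groups overlapped at untreated replicate 5, and the log2 fold change was -0.41 ± 0.10 (edgeR adjusted p = 0.0400). Ndufa11 and Ndufc2 were each called in 2 of the 10 leave-one-out fits. Ndufa1, a small membrane subunit encoded on the X chromosome, missed the threshold at -0.41 ± 0.11 (edgeR adjusted p = 0.0517), and Ndufa8 differed by -0.12 ± 0.10 (edgeR adjusted p = 0.458).

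The fourth of these called genes, Ndufa10, needs its copy beside it. Ndufa10 stood at 87.1, 77.4, 97.7, 77.0 and 75.1 CPM in the untreated and 69.3, 58.7, 52.5, 66.0 and 60.4 CPM in the RG2833 animals, with a log2 fold change of -0.43 ± 0.10 (edgeR adjusted p = 0.0284), called in 5 of the 10 leave-one-out fits. The groups did not overlap. In Ndufa10l1 the groups overlapped, with 119.7, 107, 133, 115 and 126 CPM against 112, 128, 121, 125 and 129.5 CPM and a log2 fold change of 0.04 ± 0.07 (edgeR adjusted p = 0.800). Both symbols had fractional estimated counts in 100% of samples, which happens when reads that match both are shared out between them. Among the other members this occurred only for Ndufa2, in 10% of samples. Summed, the pair stood at 203 ± 17.7 CPM in the untreated and 185 ± 7.17 CPM in the RG2833 animals (SD, n = 5), a log2 fold change of -0.14 ± 0.07 (edgeR adjusted p = 0.258). The call for Ndufa10 alone is therefore uncertain.

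Of the 10 distal membrane arm genes, 3 fell. Ndufb9, whose product has the same LYR fold as Ndufa6, stood at 258, 245, 257, 189 and 179 CPM in the untreated and 159.6, 166, 158, 171 and 153 CPM in the RG2833 animals. No values overlapped, although untreated replicates 4 and 5 lay well under replicates 1 to 3. The log2 fold change was -0.48 ± 0.11 (edgeR adjusted p = 0.0297). Ndufb7, an intermembrane-space subunit, also separated the groups, at 113, 102, 104, 85.3 and 80.6 CPM against 79.7, 75.2, 70.0, 75.3 and 71.8 CPM (-0.38 ± 0.09, edgeR adjusted p = 0.0391). Ndufb2 stood at 98.3, 92.5, 87.4, 76.8 and 62.1 CPM and 67.7, 58.0, 57.2, 64.0 and 55.2 CPM, with untreated replicate 5 inside the RG2833 range, and differed by -0.46 ± 0.11 (edgeR adjusted p = 0.0400). All of them were called in 2 of the 10 leave-one-out fits.

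The other 7 distal genes were not called. Ndufb3 (-0.37, adjusted p = 0.0505) and Ndufb4 (-0.34, adjusted p = 0.0669) came closest to the threshold. Ndufb5, Ndufb6, Ndufb8 and Ndufb11 had log2 fold changes of -0.23, -0.20, -0.24 and -0.20, with adjusted p from 0.127 to 0.280. Ndufb10, another intermembrane-space subunit, had the log2 fold change nearest to 0. It stood at 183, 177, 179, 150.2 and 140.4 CPM in the untreated and 178, 174, 154, 174 and 149 CPM in the RG2833 animals, with fully overlapping values and a log2 fold change of 0.00 ± 0.09 (edgeR adjusted p = 0.999).

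**Figure D2:**
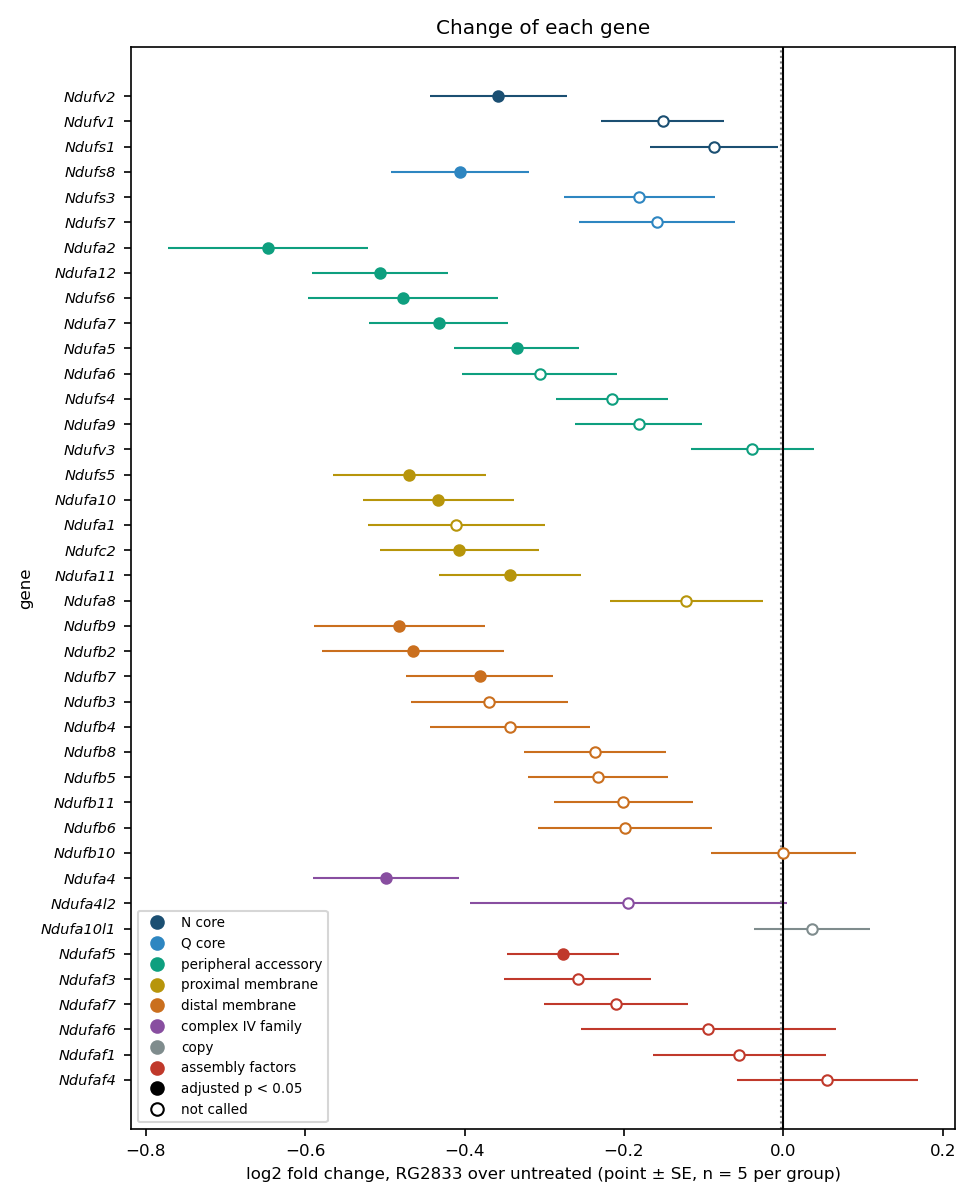
Log2 fold change of complex I and assembly factor genes, RG2833 over untreated (point ± SE, 5 animals per group), coloured by role; filled points have an adjusted p under 0.05 and the dotted line is the median of all genes tested. All subunit symbols shown except Ndufb10 and Ndufa10l1 lie left of 0, and Ndufa2 is farthest left at -0.65.

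Ndufa4, first described in complex I and now placed in complex IV, stood at 376, 315, 345, 295 and 278 CPM in the untreated and 246, 239, 219.9, 230.1 and 203 CPM in the RG2833 animals, with every RG2833 value below every untreated one. Its log2 fold change was -0.50 ± 0.09 (edgeR adjusted p = 0.0159), and it was called in 8 of the 10 leave-one-out fits. Its paralog Ndufa4l2, known as a hypoxia-induced gene, was low, with 3.44 to 6.49 CPM in the untreated and 3.62 to 5.54 CPM in the RG2833 animals. The Ndufa4l2 groups overlapped, and its log2 fold change was -0.19 ± 0.20 (edgeR adjusted p = 0.579).

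Promoter sequences were searched because 33 of the 35 log2 fold changes were below 0, although 20 members were not called. The RefSeq table of build GRCr8, which is not the rn6 build named for the counts, held a window of 250 bases before to 50 bases after the start site for 31 of the 35 symbols. The letters AAGATGGC, a YY1-type motif, stood on either strand in 8 of the 31 windows (25.8%) and in 3.44% of all 27457 windows of this length. In 7 of the 8 the match began after the start site, and the 27457 windows were not limited to genes tested here. It was held by 2 of the 14 windows of genes called lower and by 6 of the 17 windows of genes not called. The cyclic AMP response element TGACGTCA was found in 2 of the 31, Ndufa10 and Ndufb2, both called lower, against 1.91% of all windows. Of these calls, that of Ndufa10 is uncertain for the reads shared with Ndufa10l1, and that of Ndufb2 held in 2 of the 10 leave-one-out fits. The NRF1-type letters GCGCATGCG were found in 1 of the 31 (Ndufa11) against 1.66%, the ETS-type letters CCGGAAGT in 2 against 4.01%, and the SP1-type letters GGGGCGGG in 5 against 15.4%. Matches of different motifs did not overlap, 15 of the 31 windows held at least 1 of the 5 motifs, and the median GC content was 56.3% against 52.3% over all windows. Motifs were searched as exact letters on both strands, and a match is a description of the sequence only. The 4 windows printed here, chosen after the values were seen, show the member with the smallest p-value (Ndufa12), a called member with the response element (Ndufb2), a core gene not called with the YY1-type letters (Ndufs7) and the member with the fold change nearest to 0 (Ndufb10). They are 5′ to 3′ on the gene's strand, and capitals mark a matched motif. In Ndufb2 the match begins 29 bases before the start site, and in Ndufs7 it begins at position 5 after it. The windows of Ndufa12 and Ndufb10 hold none of the 5 motifs in these exact letters. Near forms were not counted, such as CGCGTGCGC in the Ndufa12 window beside CGCATGCGC, the NRF1-type letters on the opposite strand.
Ndufa12 (chr7:30658066-30658365, plus strand): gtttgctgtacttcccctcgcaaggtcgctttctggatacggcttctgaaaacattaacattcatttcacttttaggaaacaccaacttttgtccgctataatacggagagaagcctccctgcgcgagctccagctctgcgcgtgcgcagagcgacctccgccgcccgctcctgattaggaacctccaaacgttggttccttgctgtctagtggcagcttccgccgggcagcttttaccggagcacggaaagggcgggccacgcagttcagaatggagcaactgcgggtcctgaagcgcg
Ndufb2 (chr4:69334057-69334356, plus strand): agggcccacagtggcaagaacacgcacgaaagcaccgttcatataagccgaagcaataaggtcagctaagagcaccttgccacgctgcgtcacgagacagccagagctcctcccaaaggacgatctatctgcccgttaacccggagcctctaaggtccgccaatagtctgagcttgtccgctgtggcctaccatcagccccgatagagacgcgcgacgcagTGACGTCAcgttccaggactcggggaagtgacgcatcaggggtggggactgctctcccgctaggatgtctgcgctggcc
Ndufs7 (chr7:10110449-10110748, minus strand): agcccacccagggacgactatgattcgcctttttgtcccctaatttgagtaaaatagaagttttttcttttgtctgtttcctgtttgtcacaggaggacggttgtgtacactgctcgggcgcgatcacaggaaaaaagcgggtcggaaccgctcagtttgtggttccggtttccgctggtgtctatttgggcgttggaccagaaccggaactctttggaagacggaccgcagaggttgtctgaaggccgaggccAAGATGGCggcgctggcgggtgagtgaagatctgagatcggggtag
Ndufb10 (chr10:14255917-14256216, minus strand): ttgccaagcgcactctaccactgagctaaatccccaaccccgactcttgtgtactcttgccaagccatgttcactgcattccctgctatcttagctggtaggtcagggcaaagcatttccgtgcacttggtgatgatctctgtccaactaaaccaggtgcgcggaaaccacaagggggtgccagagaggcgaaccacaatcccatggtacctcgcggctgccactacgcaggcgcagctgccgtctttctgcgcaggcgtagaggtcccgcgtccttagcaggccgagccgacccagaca

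The animals differed within the untreated group as well as between the groups. As the mean over the 35 symbols of log2 CPM centred on each gene, untreated replicates 1 to 5 stood at 0.33, 0.17, 0.29, -0.02 and -0.05. RG2833 replicates 1 to 5 stood at -0.08, -0.11, -0.20, -0.10 and -0.22. The groups did not overlap, but the gap between untreated replicate 5 and RG2833 replicate 1 was small against the spread of the untreated group (SD 0.17, n = 5). The SD of the RG2833 group was 0.06. Untreated replicates 4 and 5 both lay below replicates 1 to 3 in 28 of the 35 members, against 15.7% of all genes tested. The highest value of the 10 animals was in untreated replicate 1 for 21 members and in replicate 3 for 12. The lowest was in RG2833 replicate 5 for 20 members and in replicate 3 for 9. The ribosomal RNA share was highest in untreated replicates 2 and 3 (5.36 and 5.08%) and lay between 2.70 and 3.08% in replicates 1, 4 and 5. Untreated replicate 1, the animal highest for the subunit genes, was the library with 2381 CPM of Ttr. It also had the highest summed level of oligodendrocyte markers (17104 CPM, untreated median 6248 CPM).

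**Figure D3:**
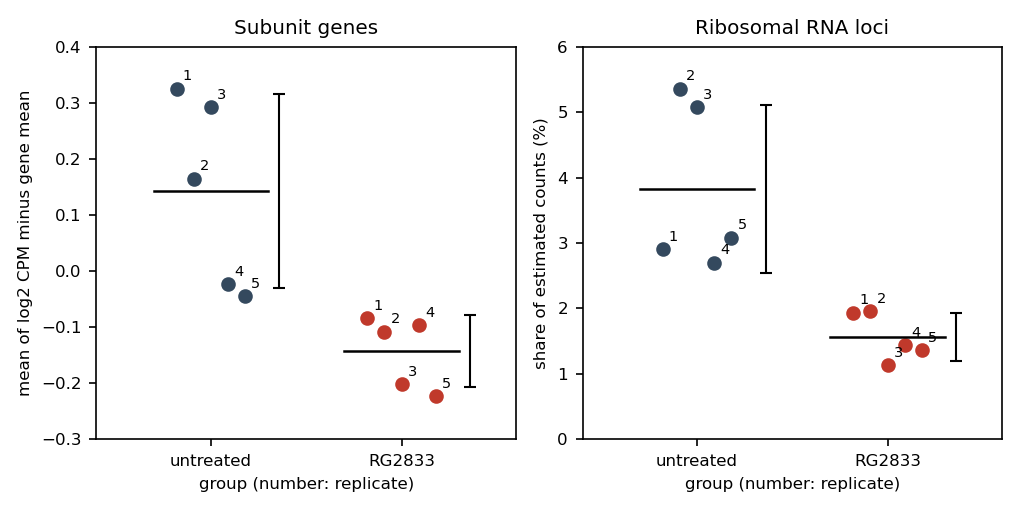
Left, the mean over the 35 subunit symbols of log2 CPM minus each gene's mean; right, the share of estimated counts at ribosomal RNA loci (%); 1 point per animal with its replicate number, the line and bar giving the mean ± SD of 5 animals. Untreated replicates 4 and 5 lie near the RG2833 animals on the left, and no animals overlap between groups on the right.

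Assembly factors hold the intermediates of complex I together and are not part of the finished enzyme. Of the 6 Ndufaf genes, 1 was called lower and 0 higher, 3 were lower at an unadjusted p under 0.05, DESeq2 also called 1, and the median log2 fold change was -0.15. Over all genes 2.67% were called lower, 12.7% were lower at an unadjusted p under 0.05, and 6.01% were called lower by DESeq2. Ndufaf5, which modifies the core subunit Ndufs7, stood at 32.7, 34.8, 36.3, 34.5 and 34.4 CPM in the untreated and 30.5, 28.0, 27.7, 29.9 and 26.5 CPM in the RG2833 animals. The groups did not overlap and the log2 fold change was -0.28 ± 0.07 (edgeR adjusted p = 0.0435), called in 2 of the 10 leave-one-out fits. The untreated animals were close together for this gene, with replicates 4 and 5 in the middle of the group. Ndufaf3 (-0.26, adjusted p = 0.112) and Ndufaf7 (-0.21, adjusted p = 0.177) were not called, and neither were Ndufaf1 (-0.06), Ndufaf4 (0.06) and Ndufaf6 (-0.09). No assembly factor was called when the ribosomal RNA share was a covariate or without untreated replicate 1, 2 or 3 or any single RG2833 animal, and 2 were called without untreated replicate 4 or 5. The log2 fold change of Ndufaf5 ran from -0.30 to -0.25 over the 10 leave-one-out fits.

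Of 11 further assembly factors without a Nduf name, 1 was called lower and 0 higher, 4 were lower at an unadjusted p under 0.05, and DESeq2 called 3 lower, beside the same all-gene shares. Nubpl, which delivers iron-sulfur clusters to complex I, stood at 6.18, 6.69, 5.47, 6.05 and 6.03 CPM in the untreated and 3.53, 3.92, 3.93, 5.28 and 3.66 CPM in the RG2833 animals. Its groups did not overlap and its log2 fold change was -0.58 ± 0.15 (edgeR adjusted p = 0.0441), called in 3 of the 10 leave-one-out fits. Tmem126b (-0.39, adjusted p = 0.0718) and Tmem70 (-0.24, adjusted p = 0.0527) missed the threshold, although no values overlapped between the groups, as in 3.47% of all genes tested. Ndufab1, the acyl carrier protein that is also a complex I subunit, differed by -0.17 ± 0.09 and was not called (edgeR adjusted p = 0.275).

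Some subunit genes of complexes III, IV and V fell as well. Of 38 tested subunit genes of complexes II to V, 15 were called lower and 0 higher (27 lower and 0 higher at an unadjusted p under 0.05; DESeq2 called 21 lower and 0 higher), with a median log2 fold change of -0.29. Over all genes the shares lower were 2.67%, 12.7% and 6.01% by these 3 measures. None of the 4 complex II genes, 3 of 9 complex III, 5 of 10 complex IV and 7 of 15 complex V genes were called lower. Atp5i, a subunit of ATP synthase, stood at 171, 161, 155, 111 and 119.5 CPM in the untreated and 82.7, 87.3, 78.6, 88.2 and 80.1 CPM in the RG2833 animals, with no overlap, and had the log2 fold change farthest below 0 of these genes (-0.78 ± 0.11, edgeR adjusted p = 0.00724). Uqcrh of complex III (-0.74, adjusted p = 0.00742) and Cox7b of complex IV (-0.70, adjusted p = 0.00785) also fell, and Atp5i, Uqcrh and Cox7b were each called in every one of the 10 leave-one-out fits. The number called lower was 0 when the ribosomal RNA share was a covariate and without untreated replicates 2 and 3 together. It ran from 6 to 21 with each animal left out, where the number over all genes ran from 66 to 746, and was 7 without untreated replicate 3 and 9, 7, 6 and 7 without RG2833 replicates 1, 2, 3 and 5. A difference between complex I and the other complexes was not tested.

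Enzymes of the tricarboxylic acid cycle, which supplies NADH to complex I, gave 0 of 12 genes called by edgeR or DESeq2. Over all genes, edgeR called 2.67% lower and 2.41% higher, and DESeq2 called 6.01% and 5.42%. At an unadjusted p under 0.05 (edgeR), 3 of the 12 were lower and 1 was higher, against 12.7% and 11.8% of all genes tested. The median log2 fold change of the 12 enzymes was -0.06. Among 12 regulators of respiratory genes, 1 was called higher and 0 lower, where 2.41% of all genes were called higher. At an unadjusted p under 0.05, 4 were higher and 0 lower (Yy1, Nrf1, Pprc1 and Esrra), against 11.8% of all genes higher. Yy1, a zinc-finger transcription factor, stood at 29.6, 30.9, 29.0, 33.4 and 34.8 CPM in the untreated and 39.9, 36.9, 40.4, 36.3 and 39.7 CPM in the RG2833 animals. Its RG2833 values were all above its untreated ones, a pattern seen in 448 of the 11791 genes tested. The log2 fold change of Yy1 was 0.29 ± 0.08 (edgeR adjusted p = 0.0458). It was called in 2 of the 10 leave-one-out fits. Nrf1, a transcription factor of nuclear-encoded respiratory genes, differed by 0.37 ± 0.13 (edgeR adjusted p = 0.108) and its coactivator Pprc1 by 0.30 ± 0.10 (edgeR adjusted p = 0.0870), and neither was called. Esrra, which encodes an estrogen-related receptor and was named after its values were seen, had a log2 fold change of 0.24 ± 0.10 (edgeR adjusted p = 0.167).

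**Figure D4:**
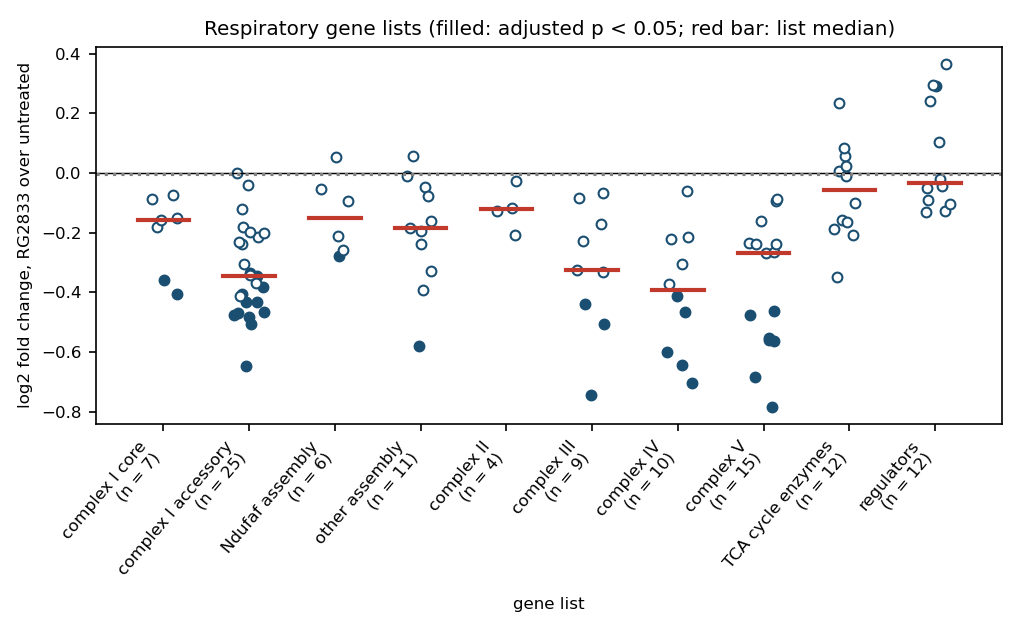
Log2 fold change, RG2833 over untreated, of each tested gene in each list, with n the number of genes; filled points have an adjusted p under 0.05, red bars are list medians and the dotted line is the median of all genes tested. Accessory subunits of complex I (median -0.34) and subunits of complexes III to V lie mostly below 0, and tricarboxylic acid cycle enzymes lie around 0.

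Most complex I genes are short, and over all genes tested those of shorter span were called lower more often in these libraries. Spans were taken from the GRCr8 gene table as a property of the gene and were found for all 35 symbols. The median span was 7.17 kb for the members and 24.3 kb for all genes tested with a span. The 2896 genes with the shortest spans held 25 of the 35 members, had a median log2 fold change of -0.05, and 5.18% of them were called lower, against 11 of those 25 members. Across the 35 members Spearman's rho between span and log2 fold change was 0.03, and across the other tested genes it was 0.16, both as a description over genes that share the same 10 libraries. Among 2886 other genes within the members' range of both span and level, 3.71% were called lower and the median log2 fold change was 0.02. That span range ran from 1.43 to 110.5 kb, with its upper end set by Ndufs4, so these genes were not matched to the members' spans. Ndufa4l2 was left out when the level range was set. The part of gene span in the members' change was not tested. With the trend of fold change on span subtracted, an alternative added after seeing the data, the members' median was -0.28.

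**Figure D5:**
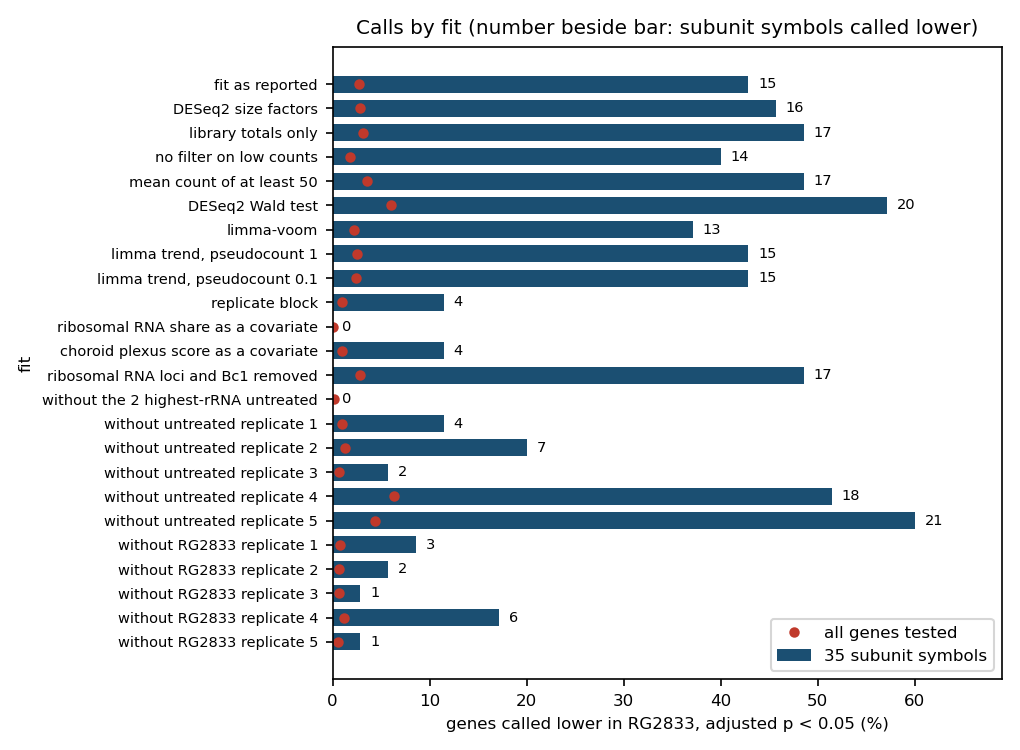
Share of the 35 subunit symbols called lower in RG2833 (bars, with the number of symbols) and of all genes tested (red points), in percent, under each fit. The members' count runs from 0 when the ribosomal RNA share was a covariate to 21 without untreated replicate 5.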

How the data were processed

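Left hippocampal RNA of 10 rats was sequenced, 1 library per animal, as stranded mRNA libraries per the labels' protocols. Per the submitters' processing notes the tools were bcl2fastq 2.17, Bowtie2 2.1.0, RSEM 1.2.15 and edgeR, with build rn6; the gene annotation is not given in the sources used here. The authors deposited RSEM expected counts (estimated counts, not normalized) and a normalized signal. In the signal, 99.98% of 134891 values above 0 lay within 1% of TMM-scaled CPM of the rounded counts. Expected counts were rounded and fitted over all genes with edgeR 4.0.16 (R 4.3.3; TMM scaling, filterByExpr by group, quasi-likelihood test, two-sided, no covariate), with Benjamini-Hochberg adjustment over 11791 genes and a threshold of 0.05. For log2 CPM the prior count was 2. Alternatives used DESeq2 1.42.0, limma 3.58.1 (on the deposited signal with pseudocounts of 1 and 0.1, and voom), other filters, scalings and covariates, and each animal left out.

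Across 20 pairs of libraries within groups, chi-square per degree of freedom was 4.60 to 36.3, so none was a duplicate. Members, lists and tests were chosen with earlier results of these data known. The values of 1 member are not reported here, although it is counted among the 35. Genes named were the other members, all Ndufaf genes, Ndufab1 and, of other lists, genes from those called or among the 3 with the smallest p-values; Esrra was added after its values were seen. Promoter motifs and printed windows were chosen after values were seen. Of the 35 symbols, 17 have a copy or pseudogene named after them in the GRCr8 table, and reads shared with such copies could move their counts.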

Additional observations from a re-analysis of the deposited data

Results flagged for a closer look

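Of 142 groups of 5 values tested for an outlying animal, 3 held one beyond Dixon's limit for 5 samples (0.71), where chance gives about 7.1. In RG2833 replicate 4 Nubpl stood at 5.28 CPM, where the rest of its group had 3.53 to 3.93 CPM (gap over range 0.772). In RG2833 replicate 3 Tmem126b stood at 11.5 CPM, where the rest had 13.4 to 13.9 CPM (0.809). In the same animal Cox7c of complex IV stood at 115 CPM, where the rest had 126 to 129 CPM (0.779). No value of the complex I symbols reported was outlying by this measure.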

How the results depend on the processing

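The number of members called lower (15) stayed between 13 and 20 under DESeq2 size factors, library totals, both other filters, DESeq2, limma-voom, limma trend, leaving out Bc1 with the ribosomal RNA loci, and an adjusted p under 0.1. It was 4 with the choroid plexus score as a covariate (median -0.30; 119 genes lower in all), 0 with the ribosomal RNA covariate, 0 without the 2 untreated animals of highest ribosomal RNA share (an alternative added after seeing the data), and 1 to 21 with each animal left out. No member was called higher under any of these. The median was -0.10 with the ribosomal RNA covariate and -0.38 to -0.28 with each animal left out. Replicate numbers 1 to 5 name different animals in the groups. A fit with a replicate block called 4 members and 0 assembly factors, with a members' median of -0.33, 23 members lower at an unadjusted p under 0.05 and 110 genes called lower in all; same-number deviations correlated at -0.07 on average (-0.32 to 0.15), and 1 of 5 untreated animals correlated best with its own number. Assembly factors called (1) were 0 without a filter, with either covariate and without those 2 animals, and 0 to 2 with each animal left out. Other respiratory genes called lower (15) were 0 with the ribosomal RNA covariate, 0 without those 2 animals, and 6 to 21 with each animal left out. The cause of these changes was not tested. Over all genes 52.6% of the calls were lower, against 46.4% with limma-voom, 48.4% with limma trend (both pseudocounts), 47.9 to 67.3% with each animal left out, 61.7% with library totals, 61.1% with the block, 61.7% with the choroid plexus covariate, 86.7% without those 2 animals and 100% with the ribosomal RNA covariate, where 2 genes were called. Over all genes 315 were lower and 284 higher, 681 and 614 by DESeq2.

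With the ribosomal RNA covariate the sign turned for Ndufa8 (0.19), Ndufs3 (0.0226), Ndufs7 (0.0439), Ndufv3 (0.0469), Ndufaf3 (0.00409), Ndufaf4 (-0.17), Sdhd (0.0358) and Suclg2 (0.16), all on the log2 scale. Ndufb10, at 0.00, turned to -0.00164 with DESeq2 size factors, -0.0120 with library totals, -0.00150 without a filter, -0.0138 with a mean count of at least 50, -0.00153 with DESeq2, and -0.00716 without ribosomal RNA loci and Bc1, and ran from -0.0540 to 0.0389 with each animal left out. In those fits Ndufa10l1 ran from -0.00176 to 0.0696, Ndufv3 from -0.0784 to 0.0117, Ndufaf1 from -0.10 to 0.0108 and Ndufaf4 from -0.0168 to 0.11. None of these genes was called in the reported test. Of the other values for single genes, 1225 kept direction and call, 286 lost the call and 30 gained one. Depth sets no bound on the members, since 3 counts correspond to at most 0.343 CPM.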
